A study of Mus musculus with 6 samples.

Results

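The cytosolic ribosome is built from ribosomal RNA and a set of ribosomal proteins, and the genes of these proteins were examined in RAW264.7 cells, a mouse macrophage-like line, after exposure to SKI-II, a compound that inhibits sphingosine kinases. All cells were of the WT genotype and of this 1 line. The SKI-II group received 4 μg/mL of the compound for 24 h, and the DMSO group received the same volume of the solvent for the same time, with 3 libraries of poly(A)-selected RNA in each group. Members were the protein-coding genes of the count table whose GENCODE M21 symbol is an Rpl or Rps symbol of the ribosome itself, without the Rps6k kinases and the -ps pseudogenes, and with at least 100 counts over the 6 libraries. Of 49315 genes in the table, 83 had such a symbol and 80 met the minimum, 48 of the large subunit (Rpl) and 32 of the small subunit (Rps). The 3 left out were Rpl3l with 49 counts, and Rpl10l and Rpl39l with 1 count each. All 80 members had enough reads for a test, so no member was lost to the filter on low counts.

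A ribosome has a large subunit, which joins amino acids, and a small subunit, which holds the mRNA and reads its codons. Their proteins are made in matched amounts, and most of their mRNAs begin with a terminal oligopyrimidine (TOP) tract, a C followed by an unbroken run of C or T. Through this tract, mTORC1 and the RNA-binding protein Larp1 set how strongly the mRNAs are translated, mostly without a change in mRNA amount. The counts below measure the mRNAs and say nothing of their translation. In macrophages, as in other cells, ribosome production is one of the largest uses of energy, and several ribosomal proteins also act outside the ribosome, as noted where each is described.

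RefSeq start sites of 60 of the 80 members were found in the table of promoter sequences. A C followed by at least 6 more pyrimidines (C or T, gene strand) occurred within 50 bases on either side of the start in 52 of these 60 members (86.7%), compared with 44.5% of the 27025 genes with such a sequence. Stretches of 30 bases around the run are printed for the 3 members that passed the test described below, for Rpl11 and Rps25, which were also among the lowest members, and for Rps27 and Rpl12, whose share of the ribosomal protein counts was higher in SKI-II. They are given 5′ to 3′ from RefSeq on GRCm38.p6, with the run that begins nearest to the start in capitals:
Rpl7a (chr2:26910787-26910816, + strand): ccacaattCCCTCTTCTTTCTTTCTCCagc
Rpl37a (chr1:72711276-72711305, + strand): cattgcgtCCCTTCCTCTTCggacttgggc
Rps2 (chr17:24720082-24720111, + strand): taaattgtCCCTTCCgcggcgcctccctct
Rpl11 (chr4:136053358-136053387, - strand): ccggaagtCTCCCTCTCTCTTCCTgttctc
Rps25 (chr9:44407684-44407713, + strand): ccaccgggCTTCCTTTTTTTCCgacatctt
Rps27 (chr3:90213629-90213658, - strand): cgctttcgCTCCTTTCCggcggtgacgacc
Rpl12 (chr2:32961666-32961695, + strand): gagctgagCTTTTCCgcctatatccggcgt
The run in capitals had 19 bases in Rpl7a and 7 bases in Rps2 and in Rpl12, and the stretch of Rps2 ends in another run of pyrimidines, left in lower case. Relative to the RefSeq start, the capitals began at -12 in Rpl7a, 24 in Rpl37a, 27 in Rps2 and 14 in Rpl11. They began at -22 in Rps25, -2 in Rps27 and -38 in Rpl12. The search does not show that an mRNA begins with the run, so 52 of 60 is not a count of TOP tracts. The ETS core CCGGAAGT, searched on either strand of the same window, was found in 6 of the 60 members (10%) and in 2.79% of all genes. In the stretch of Rpl11 it stands directly before the run. Members with a pyrimidine run had a median log2 fold change between SKI-II and DMSO of -0.08, and the members without one of -0.06.

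The libraries held 12495957 to 20050677 counts, with TMM factors of 0.941 to 1.05, and values are given below as normalized counts, that is counts scaled to the mean effective library size of 16042438. Macrophage markers were present, with all 8 tested and their summed level at 8790 to 11900 CPM, a count scaled to the size of its library, in DMSO and 5470 to 7740 in SKI-II (2 rose and 3 fell). All 4 epithelial markers were at 0, T cell and fibroblast markers summed to at most 1.13 CPM, Hbb-bs and Ly6g were at 0, and neutrophil markers summed to 1.9 to 6.99 CPM. Genes encoded by mitochondrial DNA took 1.07% to 1.25% of the counts in DMSO and 1.38% to 1.71% in SKI-II, and the part of these marker and mitochondrial differences in the results was not tested.

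The members varied together from library to library within each group, and this spread was larger than the difference between the group means. They took 4.04%, 4.73% and 5.35% of the counts in DMSO replicates 1, 2 and 3, and 3.7%, 4.32% and 5.18% in SKI-II replicates 1, 2 and 3. The share rose from replicate 1 to 3 in both groups, and each SKI-II library lay below the DMSO library of its number. The numbers were not taken as pairs, for the reason given at the end. The group means, 4.71% ± 0.655 (SD, n = 3) in DMSO and 4.4% ± 0.743 in SKI-II, lay closer to each other than the libraries of a group did. DMSO replicate 3 was the highest DMSO library for 79 of the 80 members and DMSO replicate 1 the lowest for 79, whereas among all tested genes these libraries were the highest for 42.0% and the lowest for 38.9%. SKI-II replicate 3 was the highest of its group for 79 members (37.0% of tested genes), and SKI-II replicate 1 the lowest for 73 (35.1%). The median coefficient of variation of a member across the 3 libraries was 19.3% in DMSO and 19.7% in SKI-II, and the other 4773 genes at or above the lowest member mean had 10.3% and 10.7%. When each member was instead expressed as a share of all member counts in its library, the median coefficient of variation was 3.6% in DMSO and 6.8% in SKI-II. In such bulk libraries, fewer cells of a type and less RNA per cell cannot be told apart.

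**Figure D1:**
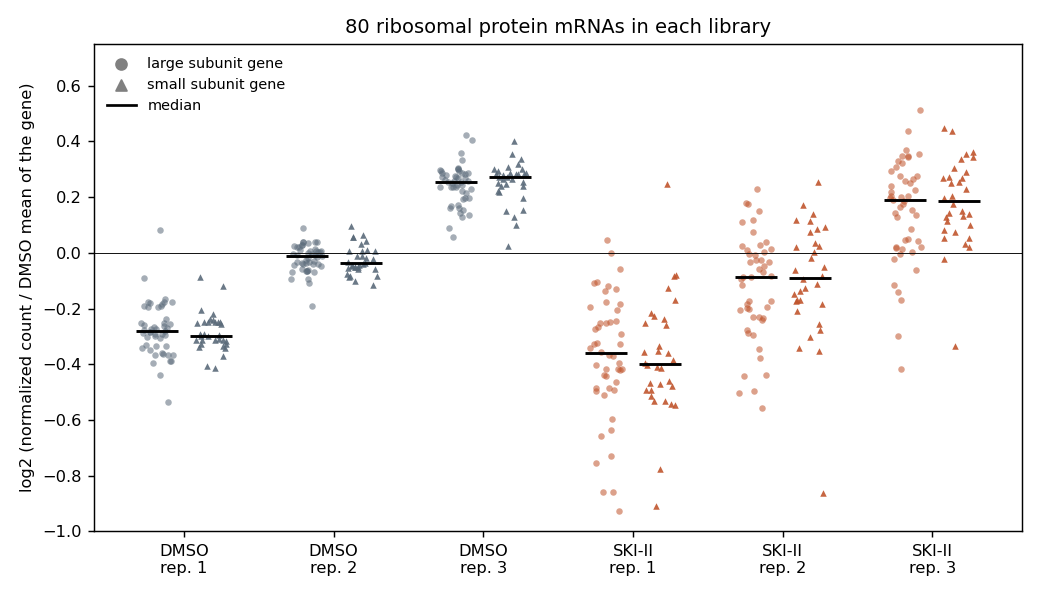
Log2 of each member's normalized count over its DMSO mean, by library, with circles for the 48 large subunit genes, triangles for the 32 small subunit genes and bars for their medians. Over all 80 members the medians were -0.29, -0.02 and 0.26 in DMSO replicates 1 to 3 and -0.38, -0.09 and 0.19 in SKI-II replicates 1 to 3, so that both subunits moved together and the groups overlapped.

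In SKI-II-treated cells, most mRNAs of cytosolic ribosomal proteins lay within a narrow range of the DMSO level. Of the 80 members none was called higher and 3 were called lower (3.75%) by the quasi-likelihood test of edgeR (adjusted p below 0.05), whereas 18.4% of the 12274 genes tested were called higher and 19.7% lower. No member was called beyond a log2 fold change of 1 or -1, compared with 8.28% and 7.44% of all tested genes. The unadjusted p was below 0.05 for 4 members. A fit with the replicate number as a block called more members lower, and also called a member higher, as given at the end. The share of all tested genes called in that fit is not given here, and the numbers were not taken as pairs. Without the block, the member log2 fold changes ranged from -0.68 (Rps2) to 0.29 (Rps20) with a median of -0.06, while the median over all tested genes was 0.004. The 95% interval of the fold change lay between -1 and 1 for 78 of the 80 members, compared with 58.0% of all tested genes, and between -0.5 and 0.5 for 37. The exceptions to the wider limit were Rps2 and Rpl7a, whose intervals reached -1.12 and -1.02. The precision of a member was below that of comparable genes, with a median SE of 0.19 against 0.14 for the other 4773 genes at or above the lowest member mean, and the median half-width of a member's 95% interval, which is not adjusted for the number of genes, was 0.42 on the log2 scale.

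The fold changes of the large and the small subunit overlapped throughout most of their range. Of the 48 large subunit genes 2 were called lower, of the 32 small subunit genes 1, and in neither was any called higher. The median log2 fold change was -0.06 in the large subunit (range -0.60 to 0.19) and -0.06 in the small subunit (range -0.68 to 0.29). Both medians turned above 0 without DMSO replicate 3 (0.07 and 0.06) and without SKI-II replicate 1 (0.04 and 0.04), and moved to -0.20 and -0.21 without DMSO replicate 1 and to -0.21 and -0.22 without SKI-II replicate 3. The ratio of large to small subunit counts, which does not depend on scaling between libraries, was 1.459, 1.469 and 1.438 in DMSO replicates 1, 2 and 3 and 1.456, 1.393 and 1.402 in SKI-II replicates 1, 2 and 3. The ranges of the groups overlap through SKI-II replicate 1, and the means were 1.455 ± 0.0158 and 1.417 ± 0.0341 (SD, n = 3). Rows of -ps pseudogenes, left out of this ratio, held counts equal to 2.69% of the member counts in DMSO and 1.99% in SKI-II. The ratio was not computed with them added. Genes that host a small nucleolar RNA in an intron, 30 of the members, had a median of -0.06, as did the 50 that host none.

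**Figure D2:**
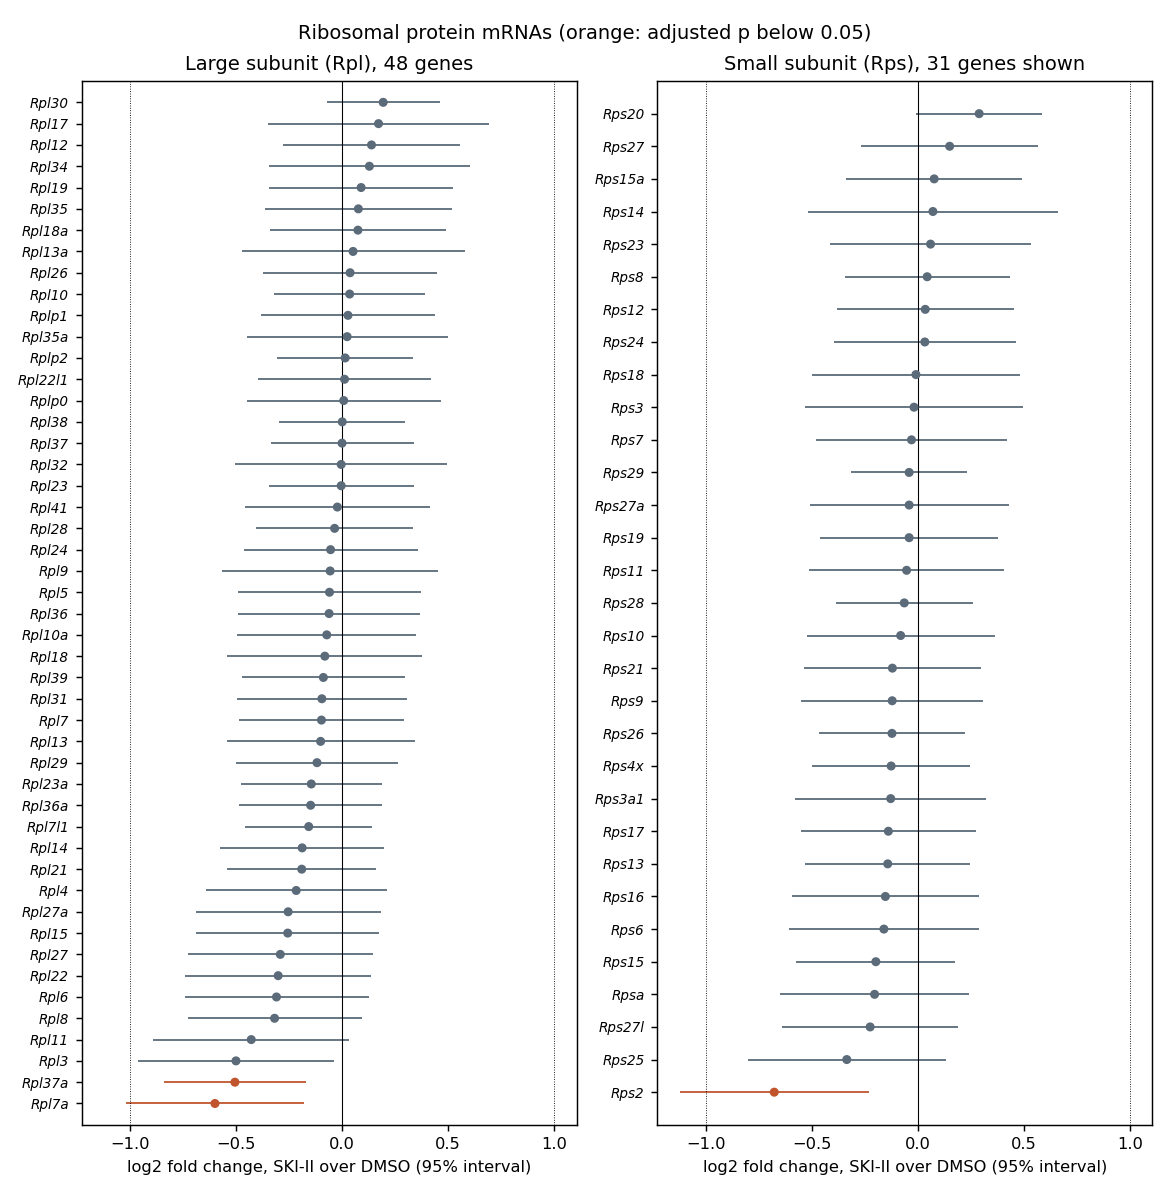
Log2 fold change of members, SKI-II over DMSO, with its 95% interval from the edgeR fit, for genes of the large subunit (left) and of the small subunit (right). Orange points, Rpl7a, Rpl37a and Rps2, are those with an adjusted p below 0.05, and dotted lines mark -1 and 1.

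The 3 members that fell were Rps2, Rpl7a and Rpl37a. Rps2 (ENSMUSG00000044533, chr17:24718116-24721929 in GENCODE M21 on GRCm38) encodes a small subunit protein near the mRNA entry channel that is also a substrate of the arginine methyltransferase Prmt3. Its normalized counts were 5438, 7316 and 8336 in DMSO replicates 1, 2 and 3 and 3741, 3866 and 5579 in SKI-II replicates 1, 2 and 3. SKI-II replicate 3 was slightly above DMSO replicate 1, and the other SKI-II libraries were below all DMSO libraries. The log2 fold change was -0.68 (SE 0.20, edgeR adjusted p = 0.0232), or 0.625 of the DMSO level.

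Rpl7a (ENSMUSG00000062647, chr2:26910764-26913318) encodes a large subunit protein and hosts 3 small nucleolar RNA genes. It had 11620, 13750 and 17130 normalized counts in DMSO against 7453, 9990 and 10610 under SKI-II. All SKI-II libraries lay below all DMSO libraries, and the log2 fold change was -0.60 (SE 0.19, edgeR adjusted p = 0.0296). Rpl37a (ENSMUSG00000046330, chr1:72711290-72713813), a zinc-binding protein of the large subunit, had 4155, 4786 and 5305 normalized counts in DMSO against 2816, 3364 and 3859 under SKI-II. These groups did not overlap either, and the log2 fold change was -0.50 (SE 0.15, edgeR adjusted p = 0.0241). In the whole set, the groups did not overlap for 2 members lower in SKI-II, these 2, and for 1 higher, Rps20, while 25.5% and 24.8% of all tested genes were lower and higher without overlap.

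The 3 calls rested on the full set of libraries. With 1 library left out, all 3 genes kept their direction, with log2 fold changes of -0.85 to -0.54 for Rps2 without a DMSO library and -0.89 to -0.58 without an SKI-II library. The calls held with DMSO replicate 1 or SKI-II replicate 3 left out, and all 3 were lost, at edgeR adjusted p of 0.063 to 0.0945, when either DMSO replicate 2 or 3 or either SKI-II replicate 1 or 2 was left out. Scaled to the members' own total, Rps2 (-0.58, edgeR adjusted p = 0.0321) and Rpl7a (-0.50, edgeR adjusted p = 0.041) were still called lower, and Rpl37a (-0.41, edgeR adjusted p = 0.108) was not.

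Rps2 and Rpl3 share much of their sequence with processed pseudogenes, intronless copies of an mRNA in the genome, and reads of such copies can be counted on the wrong row. The pseudogene Rps2-ps10 held 56506 counts over the 6 libraries, more than the 34051 counted on Rps2 itself, and Rpl3-ps1 held 38976. Rps2-ps10 had 8869, 11440 and 14590 normalized counts in DMSO against 5362, 6983 and 9351 under SKI-II, a log2 fold change of -0.69 (SE 0.23, edgeR adjusted p = 0.0396) close to that of Rps2. With the pseudogene counts added, the log2 fold change of Rps2 was -0.68 (edgeR adjusted p = 0.035) and that of Rpl3 -0.47 (edgeR adjusted p = 0.117). The other -ps rows held 9096 counts in all. Rps2 is also overlapped on the opposite strand by an exon of Snhg9, as are 18 other members by an exon of some gene on the opposite strand, and since the strand setting of the counting is not given, reads of these partners cannot be told apart. The 19 members with such an overlap had a median log2 fold change of -0.06 and 1 call, and the other 61 a median of -0.06 and 2 calls.

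Next in size among the lower members were Rpl3, Rpl11, Rps25 and Rpl8, none of which passed the test. Rpl3, which lies close to the peptidyl transferase centre, had 15650, 18040 and 22910 normalized counts in DMSO against 10410, 12830 and 16780 under SKI-II. Only SKI-II replicate 3 reached into the DMSO range, and the log2 fold change was -0.50 (SE 0.21, edgeR adjusted p = 0.0832). DESeq2 called Rpl3 lower with an adjusted p of 0.0451, and edgeR did so without a filter on low counts (adjusted p = 0.0138), without DMSO replicate 1 (adjusted p = 0.0385) and without SKI-II replicate 3 (adjusted p = 0.0247). Rpl11 forms a particle with Rpl5 and the 5S ribosomal RNA, and when free both proteins bind Mdm2, the ubiquitin ligase of p53. Rpl11 had 8296, 9965 and 12480 normalized counts in DMSO against 5655, 7880 and 9304 under SKI-II (log2 fold change -0.43, edgeR adjusted p = 0.132, and 0.0374 without a filter on low counts), whereas its partner Rpl5 was almost level, with means of 13850 ± 2784 and 13290 ± 2691 (SD, n = 3). The log2 fold change of Rpl5 was -0.06 with a 95% interval of -0.49 to 0.37. Rps25, which viral internal ribosome entry sites require, had a log2 fold change of -0.34 (edgeR adjusted p = 0.239), and Rpl8, a protein near the peptidyl transferase centre, -0.32 (edgeR adjusted p = 0.202). The remaining genes at the lower end of the small subunit were Rps27l, Rpsa and Rps15, at -0.23, -0.20 and -0.20. With libraries left out, the log2 fold changes ranged from -0.60 to -0.26 for Rpl11, -0.52 to -0.16 for Rps25, -0.47 to -0.19 for Rpl8, -0.41 to -0.06 for Rps27l, -0.36 to -0.03 for Rpsa and -0.33 to -0.08 for Rps15, and these genes passed the test in none of those fits.

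At the upper end, Rps20 had the highest log2 fold change of all members but did not pass the test. Rps20, a protein of the head of the small subunit, had 5981, 6385 and 7096 normalized counts in DMSO against 7692, 7306 and 8776 under SKI-II. All SKI-II libraries were above all DMSO libraries, the log2 fold change was 0.29 (SE 0.13, edgeR adjusted p = 0.115), and its 95% interval ran from -0.01 to 0.59. Rpl30, a large subunit protein that binds kinked RNA, had 3179, 3446 and 3515 normalized counts in DMSO against 3487, 3965 and 4146 under SKI-II. Its groups overlapped only where SKI-II replicate 1 fell below DMSO replicate 3, and its log2 fold change was 0.19 (edgeR adjusted p = 0.23). Rpl17, Rpl12, Rpl34 and Rpl19 followed in the large subunit, with log2 fold changes of 0.17, 0.14, 0.13 and 0.09, and Rps27, Rps15a and Rps14 were at the upper end of the small subunit, with 0.15, 0.08 and 0.07. The edgeR adjusted p of these 7 genes lay between 0.565 and 0.857, and all but Rps27 turned below 0 without DMSO replicate 1, and all but Rps27 and Rpl12 without SKI-II replicate 3. A further 48 members ranged from -0.31 (Rpl6) to 0.08 (Rpl35), with no edgeR adjusted p below 0.241.

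The stalk proteins and 5 other members, Rps6, Rps27a, Rps3, Rpl13a and Rpsa, had log2 fold changes between -0.20 and 0.05. The acidic proteins of the stalk, which recruits elongation factors, had log2 fold changes of 0.01 (Rplp0), 0.03 (Rplp1) and 0.01 (Rplp2), with 95% intervals of -0.45 to 0.47, -0.38 to 0.44 and -0.31 to 0.34. Rplp0, often used as a reference gene, had 13940, 17800 and 22970 normalized counts in DMSO against 16140, 16830 and 22060 under SKI-II, so that replicates of a group differed far more than the group means, 18240 ± 4531 and 18340 ± 3236 (SD, n = 3). Rps6, the substrate of the S6 kinases, stood at -0.16 (95% interval -0.61 to 0.29). Rps27a, made as a fusion with ubiquitin, stood at -0.04 (-0.51 to 0.43). Rps3, which also takes part in DNA repair and NF-κB signalling, stood at -0.02 (-0.53 to 0.50). Rpl13a, which silences the translation of inflammatory mRNAs when released from the ribosome in interferon-γ-treated monocytes, stood at 0.05 (-0.47 to 0.58). Rpsa, also known as the laminin receptor, stood at -0.20 (-0.65 to 0.24). None of these intervals reached -1 or 1.

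Paralogs of ribosomal proteins were set beside their parents on the same scale. Rpl22 had 3218, 3873 and 4580 normalized counts in DMSO against 2346, 3174 and 3948 under SKI-II, a log2 fold change of -0.30 (edgeR adjusted p = 0.258, and -0.50 to -0.13 with libraries left out), and its paralog Rpl22l1 had 600.3, 726.5 and 892.2 in DMSO against 622.1, 716.6 and 896.2 under SKI-II, a log2 fold change of 0.01 (edgeR adjusted p = 0.968). Rps27 stood at 0.15 and Rps27l, a p53 target, at -0.23 (edgeR adjusted p = 0.565 and 0.373). Rpl7 stood at -0.10 and Rpl7l1, which acts in ribosome assembly, at -0.16 (edgeR adjusted p = 0.696 and 0.39), with -0.32 to -0.03 for Rpl7l1 and 0.002 to 0.30 for Rps27 when libraries were left out. The difference between a paralog and its parent was not tested. Per length, in RPKM over the shortest principal transcript of GENCODE M21, the paralogs were the less abundant of each pair in DMSO, with 83.4 for Rpl22l1 against 510.7 for Rpl22, 181.6 for Rps27l against 780.9 for Rps27, and 86.4 for Rpl7l1 against 609.8 for Rpl7. The median member had 737.7 RPKM, and Rpl8 (2173) and Rplp1 (1632) were the highest. Rpl22l1 had the lowest mean count of all members, and 12 members were among the 100 genes with the most counts in DMSO.

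Expressing each member as a share of all member counts removed most of the movement that libraries had in common and gave the makeup of the ribosomal protein mRNAs. On this scale, 11 members were higher in SKI-II without overlap of the groups and 16 lower, while 18.6% and 16.6% of all tested genes, divided by the same totals, were higher and lower without overlap. Both counts lay near these shares of all tested genes, so they do not set the members apart. In the large subunit 5 members were higher and 12 lower, and in the small subunit 6 higher and 4 lower, to be read beside the same shares. The log2 ratios of the mean shares were small, from -0.58 (Rps2) to 0.39 (Rps20), with 72 of the 80 within 0.25 of 0. Shares are linked to each other, since a fall in some members raises the share of the rest. Reads counted on -ps rows, such as those of Rps2 and Rpl3, are not part of these shares.

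Rpl7a took 1.87%, 1.84% and 1.88% of the member counts in DMSO against 1.26%, 1.45% and 1.25% under SKI-II. Rpl3 took 2.52%, 2.42% and 2.51% in DMSO against 1.77%, 1.86% and 1.98% under SKI-II. Rpl11 took 1.34%, 1.33% and 1.37% in DMSO against 0.96%, 1.14% and 1.1% under SKI-II. For these 3 large subunit genes the DMSO libraries agreed closely, and all SKI-II libraries lay below them. Rps2 took 0.923% ± 0.0523 in DMSO and 0.618% ± 0.0517 in SKI-II, and Rpl37a 0.631% ± 0.0446 and 0.474% ± 0.0161 (SD, n = 3). Rpl22 had a lower share in every SKI-II library than in any DMSO library, with means of 0.513% ± 0.0093 and 0.441% ± 0.0375, while the share of Rpl22l1 was 0.0967%, 0.0973% and 0.0979% in DMSO against 0.106%, 0.104% and 0.106% under SKI-II, above DMSO throughout. Shares of Rps20 (0.865% ± 0.093 and 1.13% ± 0.15), of Rps27 (0.57% ± 0.0113 and 0.677% ± 0.0628) and of Rpl12, at the base of the stalk (1.66% ± 0.0519 and 1.96% ± 0.0614), were higher in every SKI-II library than in any DMSO library. Rplp1, which binds at the stalk, was also higher (1.73% ± 0.0359 and 1.88% ± 0.0429), and Rplp0 and Rplp2 overlapped between the groups. In the edgeR fit with the members' total as the scale, Rps2 and Rpl7a were called lower, and none was called higher, so that the other differences in share did not pass the test across all genes.

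**Figure D3:**
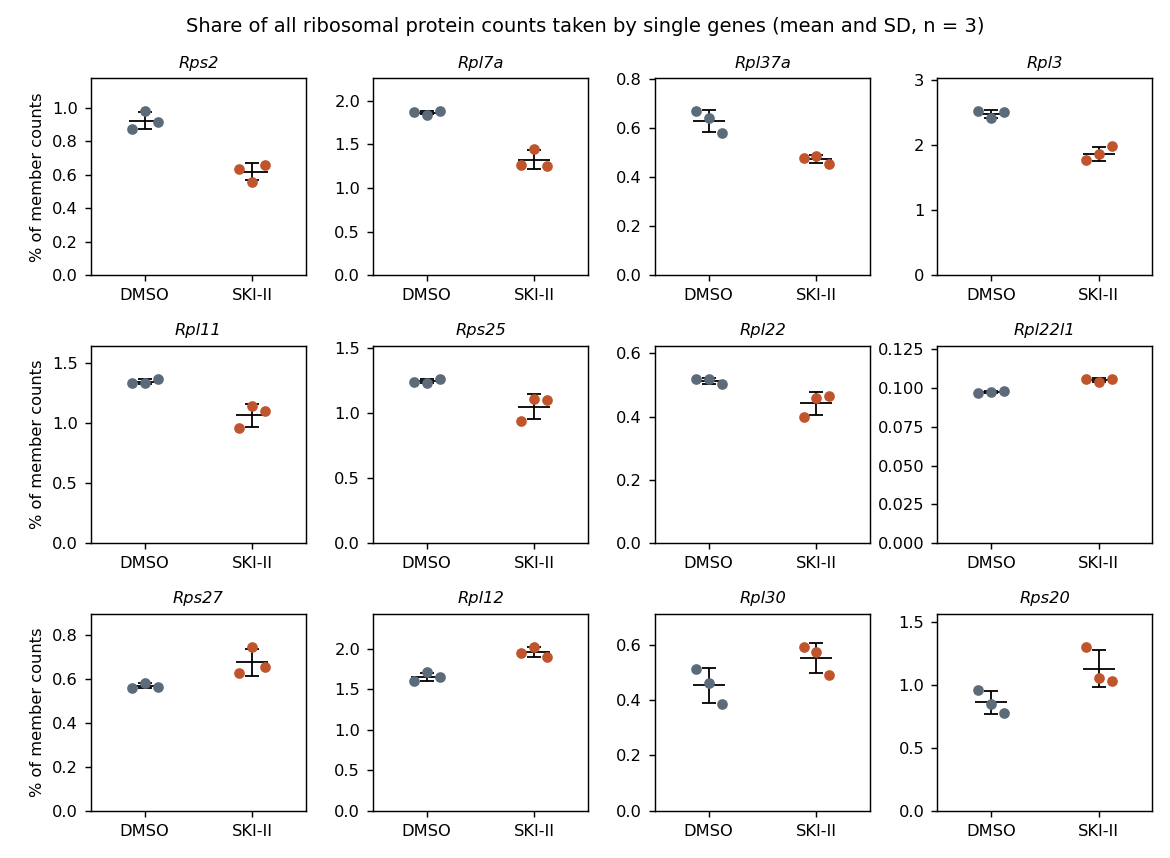
Percent of all ribosomal protein counts of a library taken by 12 members, with a point per library and the mean with SD (n = 3) for DMSO and SKI-II. Shares of Rps2, Rpl7a, Rpl37a, Rpl3, Rpl11, Rps25 and Rpl22 lie lower in all SKI-II libraries, those of Rpl22l1, Rps27, Rpl12 and Rps20 higher, and those of Rpl30 overlap.

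Subunit proteins whose genes carry other names were looked at separately. Fau, a ubiquitin-like fusion that yields a small subunit protein, stood at 0.19, Rack1, a scaffold on the small subunit, at 0.07, and Rpl36al, a copy of Rpl36a, at -0.10. None of these 3 passed the test, with edgeR adjusted p of 0.434 to 0.795, Fau ranged from 0.04 to 0.33 and Rpl36al from -0.19 to -0.01 with libraries left out, and Rack1 turned below 0 without DMSO replicate 1 (-0.06) and without replicate 3 of SKI-II (-0.07).

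Log2 fold changes beyond those of any member were found among genes that work with the ribosome, though the difference between these lists and the members was not tested. Those of all tested genes ranged from -8.35 to 10.78, so such values are not particular to these lists. In each list below, the counts are to be read beside the 18.4% of all tested genes called higher and the 19.7% called lower. Of 10 elongation and termination genes, 5 fell and none rose, with a median log2 fold change of -0.30. Eif5a, the hypusine-bearing factor that relieves ribosomes at proline stretches, had 22170, 24620 and 27960 normalized counts in DMSO against 8399, 13520 and 14890 under SKI-II. The groups were far apart, with a log2 fold change of -1.02 (SE 0.21, edgeR adjusted p = 0.00453). Eef1d, a subunit of the exchange factor for Eef1a, fell by 0.64 and Abce1, which splits ribosomes after termination, by 0.63 on the log2 scale.

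Of 36 initiation genes, 5 rose and 8 fell (median -0.18). Eif5, which activates GTP hydrolysis on the initiator tRNA complex, had 3374, 3582 and 3381 normalized counts in DMSO against 8814, 7653 and 7561 under SKI-II, a log2 fold change of 1.22 (SE 0.12, edgeR adjusted p = 7.7e-05). Eif1, which guards the choice of start codon, rose by 0.65 and Eif2b2, a subunit of the exchange factor for eIF2, by 0.54. Eif4b, a partner of the helicase eIF4A, had 18460, 20620 and 25730 normalized counts in DMSO against 10450, 11830 and 13770 under SKI-II. It fell by 0.85 on the log2 scale (SE 0.17, edgeR adjusted p = 0.004), Eif2s3x, the gamma subunit of eIF2, fell by 0.68, and Pabpc4, a poly(A)-binding protein, by 0.63. The call of Eif2b2 was lost without DMSO replicate 2 (edgeR adjusted p = 0.0659).

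Of 64 tested ribosome assembly genes, 1 rose and 12 fell (median -0.14). The genes with the lowest log2 fold changes in this list were Nolc1, Fbl and Nhp2. Nolc1, a chaperone of small nucleolar RNA particles, had 4935, 4542 and 4123 normalized counts in DMSO against 1739, 2388 and 2518 under SKI-II (log2 fold change -1.03, SE 0.16, edgeR adjusted p = 0.000788). Fbl, the methyltransferase fibrillarin, had 4456, 4445 and 4668 in DMSO against 1734, 2691 and 2532 under SKI-II, and fell by 0.96. Nhp2, of the pseudouridine-forming particles, fell by 0.96 as well (edgeR adjusted p = 0.00187). In all 3 genes every SKI-II library lay far below every DMSO library. Riok1, a kinase of late small subunit maturation, rose by 0.54, a call that was lost without DMSO replicate 2 (edgeR adjusted p = 0.0689).

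RNA polymerase I, which transcribes ribosomal RNA, had 1 of 14 listed genes called higher and 3 lower (median -0.12). Taf1d, Polr1c and Polr1d fell by 0.92, 0.83 and 0.61, and Polr1c and Polr1d are also subunits of RNA polymerase III. Taf1c rose by 0.80 (edgeR adjusted p = 0.039), a call that was lost without DMSO replicate 2 (adjusted p = 0.0866) or 3 (0.0929), or without SKI-II replicate 1 (0.138) or 2 (0.126), and with library size alone as the scale.

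Of 16 genes of mTORC1 and of the control of TOP mRNAs, 3 rose and 5 fell (median 0.05). Ddit4, a stress-induced inhibitor of mTORC1, had 442.9, 336.1 and 663.4 normalized counts in DMSO against 1650, 1000 and 889.7 under SKI-II, a log2 fold change of 1.29 (SE 0.28, edgeR adjusted p = 0.00548). Sesn2, which holds mTORC1 inactive when leucine is low, rose by 0.64, and Akt1s1, the inhibitory subunit PRAS40, by 0.50. Deptor, another inhibitor bound to mTOR, fell by 0.97, Eif4ebp2, a repressor of cap-dependent initiation, by 0.64 and Rheb, the GTPase that activates mTORC1, by 0.53. So inhibitors of mTORC1 were found in both directions. The call of Akt1s1 was lost when replicate 1 or 2 of either group was left out (edgeR adjusted p of 0.0748, 0.0806, 0.0761 and 0.059), and that of Rheb without DMSO replicate 2 or SKI-II replicate 2 (0.0731 and 0.0507).

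Of 16 genes that handle stalled ribosomes, 3 rose and 3 fell (median 0.04). Gtpbp2, a rescue GTPase, had 2686, 4220 and 3096 normalized counts in DMSO against 5817, 6074 and 7317 under SKI-II (log2 fold change 0.94, SE 0.18, edgeR adjusted p = 0.00267). Pelo, which frees stalled ribosomes, rose by 0.68 and Tcf25, of the quality control complex on the large subunit, by 0.42. Map3k20, the kinase ZAK that senses colliding ribosomes, had 2002, 1957 and 2006 normalized counts in DMSO against 1070, 863.5 and 1330 under SKI-II and fell by 0.87 (edgeR adjusted p = 0.00202). Serbp1, which occupies idle ribosomes, fell by 0.72 and Gtpbp1 by 0.48. The calls of Pelo and Gtpbp1 were lost when either DMSO replicate 2 or 3 or either SKI-II replicate 1 or 2 was left out (edgeR adjusted p of 0.0579 to 0.104), and that of Tcf25 without DMSO replicate 2 (0.0767).

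The ribosome of mitochondria has its own protein set, encoded in the nucleus, and was compared as a list of its own. Of 78 mitochondrial ribosomal protein genes 6 rose and 15 fell, with a median log2 fold change of -0.25 and a range of -0.82 to 0.87. Mrpl28, Mrps9 and Mrps35 fell by 0.82, 0.79 and 0.79 (edgeR adjusted p = 0.0016, 0.00438 and 0.00451). Mrpl24, Mrps6 and Mrps18b rose by 0.87, 0.73 and 0.47 (edgeR adjusted p = 0.000767, 0.003 and 0.0207). The call of Mrps18b was lost without DMSO replicate 1 (edgeR adjusted p = 0.0635), without DMSO replicate 2 (0.0561) and without replicate 3 of SKI-II (0.0723). The difference between the cytosolic and the mitochondrial set was not tested.

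**Figure D4:**
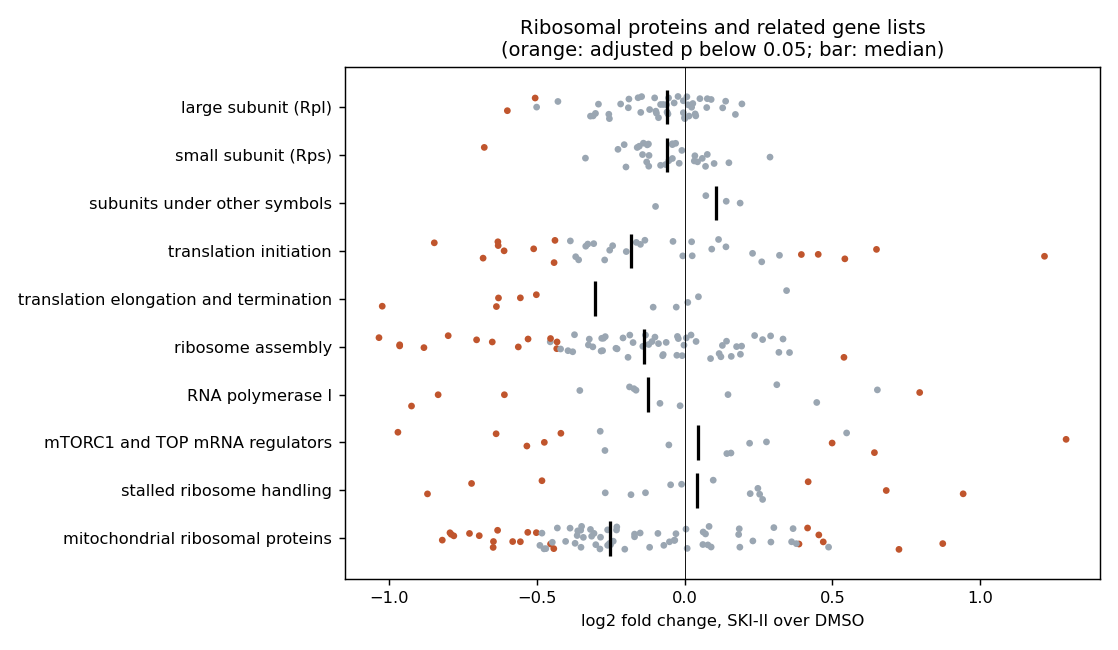
Log2 fold change, SKI-II over DMSO, of each tested gene of the large and small subunit and of the related lists, with orange for an adjusted p below 0.05 and a bar at the median of each list. The cytosolic subunits lie between -0.68 and 0.29, and the genes of initiation, elongation, assembly and mTORC1 reach from about -1.03 (Nolc1) to 1.29 (Ddit4).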

How the data were processed

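RNA of 3 SKI-II and 3 DMSO libraries was enriched with oligo(dT) beads and made into libraries with the NEBNext Ultra II RNA kit. According to the submitters' processing notes, the tools were Trimmomatic 0.36, STAR 2.5.2b, featureCounts of Subread 1.5.2 and DESeq2. The deposited table used here holds the authors' raw count of reads per Ensembl gene for each library, with no normalization. The sources used here do not give the genome build, the annotation release, the strand setting or the treatment of reads that map to several places. Names, positions and lengths come from GENCODE M21 (GRCm38), which named 49056 of the 49315 identifiers.

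In edgeR 4.0.16 (R 4.3.3), the quasi-likelihood F test was fitted to all genes kept by filterByExpr (minimum count 10, minimum total 15), with TMM scaling and Benjamini-Hochberg adjustment over the 12274 genes, and the members were read from that fit. Standard errors come from the fitted negative binomial weights and the moderated dispersion. Libraries of a group differed by more than sampling noise (chi-square per degree of freedom 15.4 to 58.1), so each counted as 1 replicate. The labels do not say whether the libraries come from separate cultures, so p-values measure only the spread between them. The scripts were tested on simulated counts. Sums and shares over members have no test.

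Named are the 5 highest and the 5 lowest log2 fold changes in each subunit, paralogs and their parents, Rplp0, Rplp1, Rplp2, Rpl5, Rpl11, Rps6, Rpsa, Rps27a, Rpl13a, Rps3, the subunits under other symbols, and in each of 7 hand-written lists the 3 highest and the 3 lowest changes among called genes. Snhg9, the pseudogenes and the members named only for their share were chosen after their values were seen, as were Rpl3l, Rpl10l and Rpl39l for their counts. Results of some genes picked by this rule are not reported here. Members and lists were chosen with earlier results of these data known. Alternatives were DESeq2 1.42.0, limma-voom (limma 3.58.1), RLE scaling, library size alone, TMM without the members, no filter, at least 10 counts in every library, the replicate number as a block, and each library left out. Scaling to the members' total, adding -ps rows to their parent, and leaving out both libraries of a number were chosen after seeing the data. Figures were drawn with matplotlib 3.10.9.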

Additional observations from a re-analysis of the deposited data

How the results depend on the processing

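None of the 80 members was called higher with DESeq2, limma-voom, RLE scaling, library size alone, TMM without the members, no filter, at least 10 counts in every library, the members' total as scale or -ps rows added, and between 0 and 4 were called lower when libraries were left out (large subunit 0 to 3, small subunit 0 to 1). Without a filter 5 members were called lower, 4 of the large subunit, and Pol I genes called higher numbered 2. With the members' total as scale, 1 large subunit member was called lower, and Rpl7 (0.009), Rpl5 (0.037), Rps27a (0.059) and Rps3 (0.086) turned above 0. With TMM without the members, Rplp0 turned to -0.002. DESeq2 called 2 assembly genes higher, and library size alone called 0 Pol I genes higher. The cause of these shifts was not tested.

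Same-numbered libraries of the groups had deviations that correlated at 0.234, 0.018 and 0.437, and 3 of the 6 libraries were closest to their own number, so the numbers were not taken as pairs. With the replicate number as a block, 1 member was called higher, of the small subunit, and 10 lower, 8 of the large and 2 of the small subunit, and the calls were 1 higher in elongation, 2 higher in assembly, 2 higher in Pol I and 27 lower among mitochondrial ribosomal proteins.

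With libraries left out, counts of calls were 2 to 5 higher for initiation, 0 to 1 higher and 3 to 5 lower for elongation, 0 to 3 higher for assembly, 0 to 2 higher for Pol I, 2 to 5 lower for mTORC1 and TOP control, 1 to 3 higher for stalled ribosomes and 2 to 6 higher for mitochondrial ribosomal proteins. Log2 fold changes that changed sign ranged from -0.077 to 0.267 (Rpl19), -0.057 to 0.306 (Rpl34), -0.017 to 0.282 (Rpl12), -0.038 to 0.388 (Rpl17), -0.165 to 0.323 (Rps14), -0.076 to 0.240 (Rps15a), -0.145 to 0.168 (Rpl22l1), -0.226 to 0.060 (Rpl7), -0.167 to 0.207 (Rplp0), -0.113 to 0.160 (Rplp1), -0.087 to 0.107 (Rplp2), -0.223 to 0.111 (Rpl5), -0.346 to 0.006 (Rps6), -0.229 to 0.162 (Rps27a), -0.169 to 0.320 (Rpl13a), -0.203 to 0.197 (Rps3) and -0.067 to 0.210 (Rack1). Without both libraries of number 1, Rpl22l1, Rplp0, Rplp2 and Rpl13a stood at -0.010, -0.073, -0.014 and -0.050, and without those of number 3 Rps3 at 0.016, and without those of number 2 Rps14 at -0.020. Over the 69 named genes, 639 values under other settings kept direction and call, 2 lost the call, 9 gained it and 5 turned. With libraries left out, 509 kept both, 69 lost the call, 3 gained it and 40 turned. At 12495957 counts or more per library, the median SE was 0.188 for members and 0.138 for other genes at or above the lowest member mean.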
